A study of Mus musculus with 6 samples.

Results

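A set of 10 genes of the Hippo pathway output was followed through bulk RNA-seq of mouse embryonic stem cells (mESCs) and of the cardiac precursor cell cultures (CPCCs) derived from them. They are the coactivators *Yap1* and *Wwtr1* (the gene of TAZ), the 4 TEAD transcription factor genes *Tead1*, *Tead2*, *Tead3* and *Tead4*, the CCN genes *Cyr61* (*Ccn1*), *Ctgf* (*Ccn2*) and *Wisp1* (*Ccn4*), and *Amotl2*. They were chosen by symbol, and are 10 of the 16279 genes that at least 1 of the 2 tables of gene counts lists. All 10 are in the CPCC table and 9 are in the mESC table, from which *Wisp1* is missing.

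The study examined allele-specific expression in a cardiac lineage, while the gene counts used here are not split by allele. The mESCs were male F1 cells of the strain labelled C57BL/6 x CAST/EiJ (C57BL/6J mothers and CAST/EiJ fathers per the methods of the study), from 3 clones that each began as a single cell, 1 clone from each of 3 lines, and each line from its own blastocyst. They were grown without feeders in medium with LIF and 2 inhibitors, PD0325901 against MEK and CHIR99021 against GSK3. The CPCCs came from these clones through embryoid bodies treated with ascorbic acid, which were dissociated and passaged in medium with EGF and Fgf2. Each cell type has 3 libraries, named here by their table columns, with S01 to S03 from mESCs and S04 to S06 from CPCCs. The columns do not say which CPCC library came from which clone. The cell types also differ in medium and in passage, so cell type and culture conditions cannot be told apart.

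The mESC libraries totalled 6442639 to 6907330 counts and the CPCC libraries 8468819 to 11436062, with the highest total in S04. Each table leaves out genes whose 3 libraries sum to under 10 counts. Values in CPM are counts per 1000000 of the scaled library size, which is the total over genes in both tables times its TMM factor. On this scale 3 counts in 1 library, used as the floor, equal on average 0.448 CPM in mESCs and 0.335 CPM in CPCCs. Sums given per 1000000 counts, as for the markers, use the total of the whole table instead, so the scales differ. All 8 pluripotency markers examined were lower in CPCCs, with summed levels of 5250 to 5595 per 1000000 counts in the mESC libraries and 107.5 to 295 in the CPCC libraries. The 8 cardiac progenitor markers summed to 38.7 to 120.5 per 1000000 counts in CPCCs, against 3.97 to 4.63 in mESCs. Of these, 3 were tested and 1 was higher, *Tnnt2*, at 51.6 ± 44.2 CPM in CPCCs (SD, n = 3) with 102.6 CPM in S04. A further 4 are listed only for CPCCs, among them *Mef2c*, at least 31.3-fold higher than the mESC floor, and *Nkx2-5* at 0.836 CPM, and *Tbx5* is missing from the CPCC table. The 8 mesenchymal markers summed to 6228 to 8904 in CPCCs against 12.1 to 18.5 in mESCs, and the 4 smooth muscle markers to 6114 to 9737 against 0.442 to 1.31. Most of the mesenchymal sum in CPCCs was *Col1a1*, *Col1a2* and *Col3a1* (means of 3049, 2375 and 1670 CPM), and *Pdgfra* of that list did not pass. Most of the smooth muscle sum in CPCCs was *Acta2* and *Tagln* (4636 and 3662 CPM). Sums of 5 neural markers (503.7 to 584 in CPCCs against 42.1 to 47.8 in mESCs) and 5 endoderm markers (32.4 to 53.6 against 1.71 to 7.09) were also higher in CPCCs. Most of the neural sum in CPCCs was *Nes* (358 CPM). Sums of 5 endothelial (11.4 to 21.0 against 91.4 to 101.4) and 5 trophectoderm markers (43.9 to 63.7 against 67.9 to 77.4) were lower, but each mESC sum was mostly 1 gene, *Pecam1* (91.1 CPM in mESCs, 4.44 in CPCCs) and *Tfap2c* (67.0 and 3.97). Of the other endothelial genes, *Cdh5* and *Kdr* are listed only for CPCCs and *Tek* did not pass, and the trophectoderm genes *Gata3* and *Krt7* were higher in CPCCs. *Tie1* of the endothelial list, *Afp* and *Ttr* of the endoderm list and *Cdx2* and *Elf5* of the trophectoderm list are in neither table. The part of this mixture of cell types in the results below was not tested, and in bulk RNA a change in the number of cells of one type cannot be told apart from a change in RNA per cell.

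In the Hippo pathway, the kinases MST1 and MST2 (*Stk4* and *Stk3*) with their partner *Sav1* activate the kinases LATS1 and LATS2 with MOB1, which phosphorylate YAP and TAZ and keep them out of the nucleus. YAP and TAZ that escape this enter the nucleus, bind TEAD proteins, which supply the DNA binding, and raise transcription of targets such as *Cyr61*, *Ctgf* and *Amotl2*. The pathway is known for its control of organ size, including that of the heart, and for its response to cell density and to the stiffness of the substrate. Phosphorylation and location of YAP and TAZ cannot be read from transcript counts.

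TEAD proteins bind the letters CATTCC, or GGAATG on the other strand, and the promoters of the genes were searched for them because these are the letters that the TEAD members read. The sequences are those of RefSeq on GRCm38.p6 for the 250 bases before each start site, where 6 of the 10 genes have 9 start sites. Of the 9 start sites, 7 have at least 1 match on either strand, in *Yap1*, *Wwtr1*, *Tead3*, *Cyr61* and *Amotl2*. Among all 32851 promoters of the same length in the table, 4153 (12.6%) have at least 1 match and 336 (1.02%) at least 2. The match before the first start site of each gene is given here with 12 bases on either side, read on the strand that spells CATTCC, which is in capitals.
*Yap1*: tgcgcgtcgctaCATTCCtgcagactcccg
*Wwtr1*: agcgcctatctgCATTCCtttgagtttacc
*Tead3*: tcccgcgcacccCATTCCtcgctcgtcgtc
*Cyr61*: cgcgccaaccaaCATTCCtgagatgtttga
*Amotl2*: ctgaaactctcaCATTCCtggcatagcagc
The *Yap1* window is at chr9:8004720-8004749, with the match 141 bases upstream of the start and on the strand opposite to the gene. The *Wwtr1* window (chr3:57576029-57576058) and the *Tead3* window (chr17:28350970-28350999) are also read opposite to their genes, with matches 136 and 182 bases upstream. In *Cyr61* (chr3:145650071-145650100, 103 bases upstream) and *Amotl2* (chr9:102717727-102717756, 65 bases upstream) the match is on the strand of the gene, and the *Amotl2* window lies in an exon (102717668 to 102717902) of *Amotl2* transcripts in GENCODE that begin before the start site used here and before the start in the count table. The same *Wwtr1* match is 170 bases upstream of the second start site of that gene. A second start site of *Tead3*, inside the transcript from the first, has 2 further matches, 114 and 123 bases upstream. The windows of *Tead2* and of the third *Tead3* start site have no match. *Ctgf*, *Wisp1*, *Tead1* and *Tead4* have no entry in the table.

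The upstream sequence of *Cyr61*, the member with the largest fold change among those tested, is given as the 250 bases before its start on the minus strand of chromosome 3 (chr3:145649986-145650235), with CATTCC in capitals.
*Cyr61*: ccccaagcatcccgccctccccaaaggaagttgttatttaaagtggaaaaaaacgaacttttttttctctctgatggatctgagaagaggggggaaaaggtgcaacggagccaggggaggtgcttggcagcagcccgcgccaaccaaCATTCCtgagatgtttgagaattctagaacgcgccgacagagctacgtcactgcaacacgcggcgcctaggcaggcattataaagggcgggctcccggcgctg
The letters TATAAA, found in 12.4% of all promoters of this length on either strand, lie 25 bases upstream of the *Cyr61* start. The AP-1 motif TGANTCA, which reads the same on either strand and is present in 6.75% of all promoters, has 0 matches in the 9 windows. A match of these letters is a description of the sequence and does not show that a factor binds there.

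Between the cell types, 9 of the 10 genes could be tested. *Tead1*, *Tead3*, *Wwtr1*, *Cyr61*, *Ctgf* and *Amotl2* were higher in CPCCs, *Tead4* was lower, and *Yap1* and *Tead2* did not pass the threshold of an adjusted p under 0.05. The test was the quasi-likelihood test of edgeR, adjusted by Benjamini-Hochberg over all 12471 genes tested, of which 61.4% passed. By direction, 31.7% of all genes tested were higher in CPCCs, against 6 of the 9 members, and 29.7% were lower, against 1 of the 9. As a log2 fold change (CPCC over mESC), the median came to 1.83 for the 9 members and 0.03 for all genes tested. The members were chosen with earlier results of these data known, so these contrasts with all genes are descriptive only. In 8 of the 9 members the libraries of the cell types did not overlap, as in 69.7% of all genes tested. In an exact two-sided permutation test of single genes, 3 libraries against 3 cannot give a p below 0.10, and each of those 8 members reached that value.

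**Figure D1:**
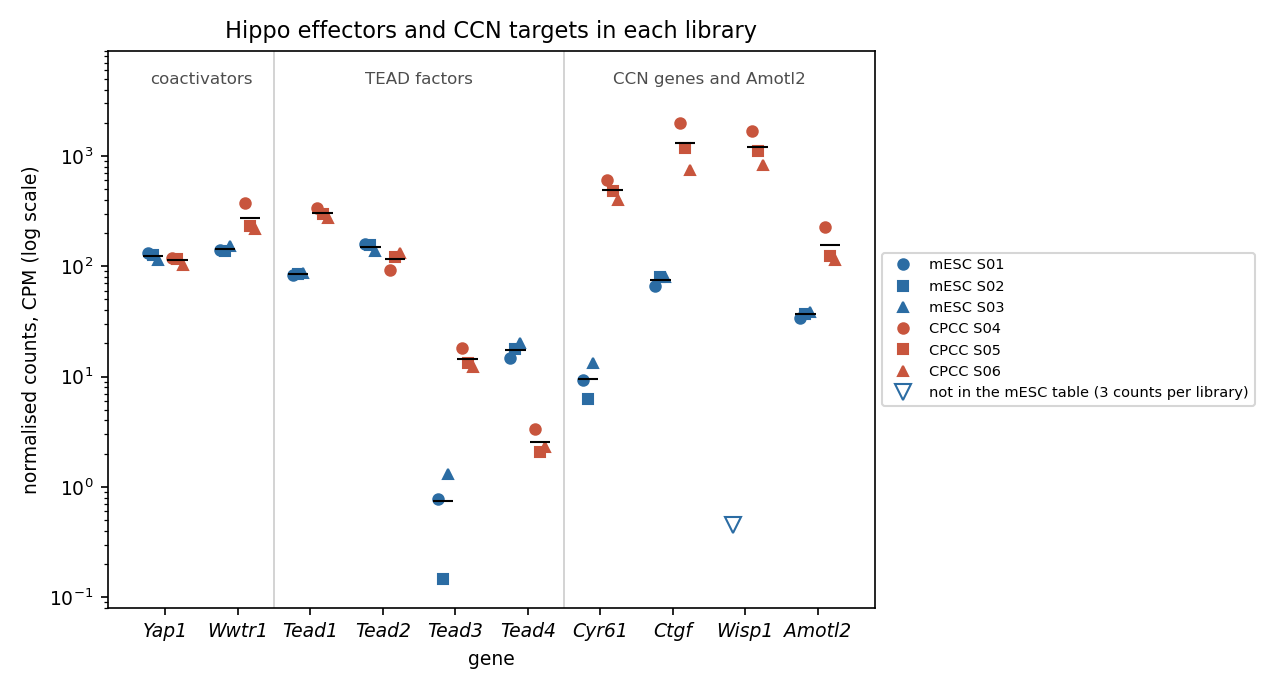
Normalised read counts (CPM, log scale) of the 10 genes in each library, with mESC libraries in blue, CPCC libraries in red and the mean of each group as a bar. *Yap1* overlaps between the cell types, *Cyr61* and *Ctgf* are far apart, and *Wisp1*, missing from the mESC table, is marked there by an open triangle at the floor of 3 counts per library.

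Of the 2 coactivators, *Wwtr1* rose and *Yap1* did not pass the test. *Yap1* (chromosome 9, 7932001 to 8004597, minus strand of mm10) stood at 130.8, 127.4 and 114.5 CPM in S01 to S03, the mESC libraries, against 119.2, 117.5 and 103.6 CPM in the CPCC libraries S04 to S06. The libraries of the 2 cell types overlapped, with means of 124 ± 8.60 CPM in mESCs and 113 ± 8.55 CPM in CPCCs (SD, n = 3 each). The log2 fold change was -0.13 ± 0.16 (SE, edgeR adjusted p = 0.485). The exons of *Yap1* share 116 bases with *Gm20416* on the other strand, which is in neither table. As the library kit did not mark strand, reads from those bases could come from either gene.

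*Wwtr1* (chromosome 3, 57455644 to 57575911, minus strand) encodes TAZ, the paralog of YAP. Its values were 141.7, 138.0 and 153.9 CPM in the mESC libraries and 373.2, 232.6 and 218.0 CPM in S04, S05 and S06. Every CPCC library was above every mESC library, and S04 was well above the other CPCC libraries. The means were 144.5 ± 8.32 CPM in mESCs and 274.6 ± 85.7 CPM in CPCCs (SD, n = 3 each), a fold of 1.90 and a log2 fold change of 0.93 ± 0.22 (SE, edgeR adjusted p = 0.00562). Without S04 the log2 fold change was 0.65 (edgeR adjusted p = 0.00128).

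Within a library the ratio of *Wwtr1* to *Yap1* does not depend on the scaling of the library. Per kilobase of exon it was 0.945, 0.945 and 1.17 in the mESC libraries and 2.73, 1.73 and 1.84 in S04, S05 and S06. The 2 coactivator genes were thus near the same level in mESCs, at 1.02 ± 0.131 (SD, n = 3), while in CPCCs the ratio was 2.10 ± 0.552 (SD, n = 3). The difference of the mean log2 ratios was 1.02, and the libraries did not overlap (exact two-sided permutation test, p = 0.10, the smallest that 3 against 3 allows).

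Of the 4 TEAD genes, 2 rose, 1 fell and 1 did not pass the test. *Tead1* (chromosome 7, 112679320 to 112906806, plus strand), whose product is needed for growth of the embryonic heart, had 82.8, 85.6 and 86.6 CPM in the mESC libraries against 335.8, 296.6 and 272.9 CPM in S04, S05 and S06. The 3 values of each cell type lay close together and far from those of the other, at 85.0 ± 1.97 and 301.8 ± 31.8 CPM (SD, n = 3 each). *Tead1* was 3.55-fold higher in CPCCs, with a log2 fold change of 1.83 ± 0.16 (SE, edgeR adjusted p = 1.9e-05).

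*Tead3* (chromosome 17, 28331673 to 28350806, minus strand) was close to the floor in mESCs, with 5, 1 and 9 counts in S01, S02 and S03, or 0.772, 0.147 and 1.32 CPM. In S04, S05 and S06 it had 182, 109 and 107 counts, or 18.1, 13.2 and 12.3 CPM. All CPCC libraries were thus above all mESC libraries by a wide margin, at 14.5 ± 3.13 CPM against 0.745 ± 0.585 CPM (SD, n = 3 each). The fold from the edgeR fit was 19.1, and the log2 fold change 4.26 ± 0.57 (SE, edgeR adjusted p = 0.000225). With so few mESC counts the size of this change was poorly set, and it moved to 4.95 without S03 and to 3.78 without S02.

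*Tead4* (chromosome 6, 128227143 to 128300814, minus strand) is best known for its role in the first lineage choice of the embryo, where it is needed for the trophectoderm. It had 95, 121 and 137 counts in mESCs and 34, 17 and 20 counts in S04, S05 and S06, which came to 14.7, 17.8 and 20.0 CPM against 3.38, 2.06 and 2.29 CPM. This was the single member that fell, from 17.5 ± 2.69 CPM to 2.58 ± 0.704 CPM (SD, n = 3 each). Its level was 6.72-fold higher in mESCs, with a log2 fold change of -2.75 ± 0.34 (SE, edgeR adjusted p = 0.000149).

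*Tead2* (chromosome 7, 45215753 to 45233620, plus strand), a TEAD gene known to be transcribed from the first cleavage stages of the embryo, had 160.0, 155.0 and 136.5 CPM in the mESC libraries against 93.4, 121.3 and 132.5 CPM in S04, S05 and S06. The highest CPCC library lay just under the lowest mESC library, and S04 was the lowest of all. The means were 150.5 ± 12.4 and 115.7 ± 20.1 CPM (SD, n = 3 each), and the log2 fold change of -0.38 did not pass the test (SE 0.18, edgeR adjusted p = 0.0953). With genes missing from one table set to 3 counts per library it was -0.45 and passed (edgeR adjusted p = 0.0497). The exons of *Tead2* share 13 bases with *Cd37* on the other strand, which only the mESC table lists.

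**Figure D2:**
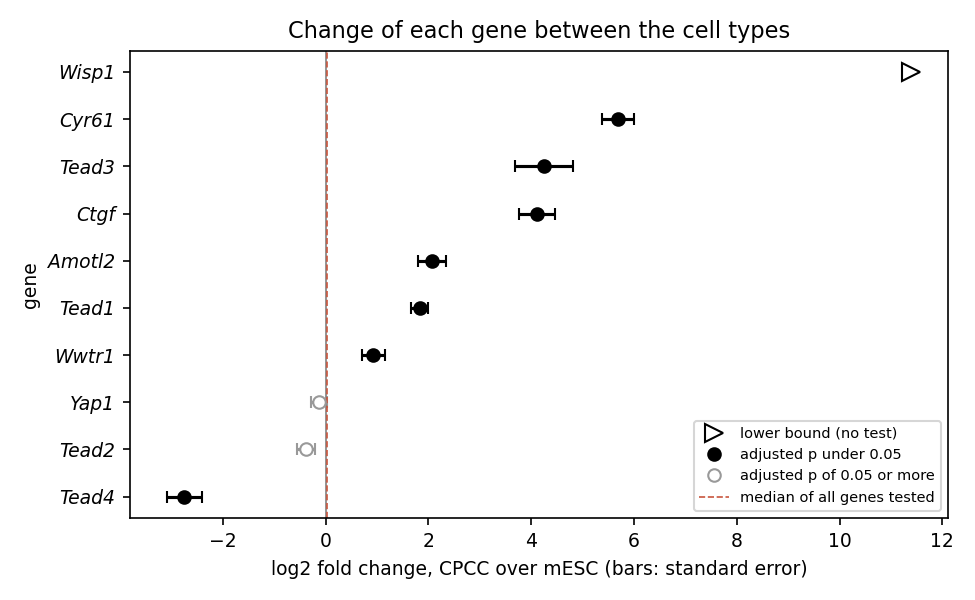
Log2 fold change (CPCC over mESC) of each gene with its standard error as a bar, where filled points passed an adjusted p under 0.05 in edgeR, open points did not, and the triangle is the lower bound for *Wisp1*. The values run from -2.75 in *Tead4* to 5.69 in *Cyr61* among tested genes, with the bound of *Wisp1* at 11.39 and the median of all genes tested, 0.03, as a dashed line.

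The makeup of the TEAD transcripts was compared as the share of each gene in the summed TEAD level per kilobase of exon within a library. The sum itself came to 58.3, 57.8 and 53.6 CPM per kilobase in mESCs and 66.9, 69.0 and 69.6 in CPCCs, each CPCC library being above each mESC library. Its mean was 56.6 ± 2.58 in mESCs and 68.5 ± 1.42 in CPCCs (SD, n = 3 each). *Tead2* took most of the mESC sum, with 78.4%, 76.6% and 72.7%, and had 39.9%, 50.2% and 54.4% in S04, S05 and S06. *Tead1* had 14.1%, 14.7% and 16.1% in mESCs and 49.9%, 42.8% and 39.0% in CPCCs.

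In the means, *Tead1* gained 28.9 percentage points, from 15.0% ± 0.992 to 43.9% ± 5.55, and *Tead2* had 75.9% ± 2.92 in mESCs and 48.1% ± 7.46 in CPCCs (SD, n = 3 each). In S04 the share of *Tead1* was the larger of the 2, and in S05 and S06 that of *Tead2* was. *Tead3* went from 0.437% ± 0.357 to 6.91% ± 1.64 and *Tead4* from 8.67% ± 1.70 to 1.05% ± 0.311 (SD, n = 3 each). *Tead4* was thus the third TEAD gene by level in mESCs and the last in CPCCs, with *Tead3* in its place. For all 4 shares the libraries of the cell types did not overlap (exact two-sided permutation test, p = 0.10, the smallest that 3 against 3 allows). The 4 shares of a library sum to the whole and are not independent of each other.

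**Figure D3:**
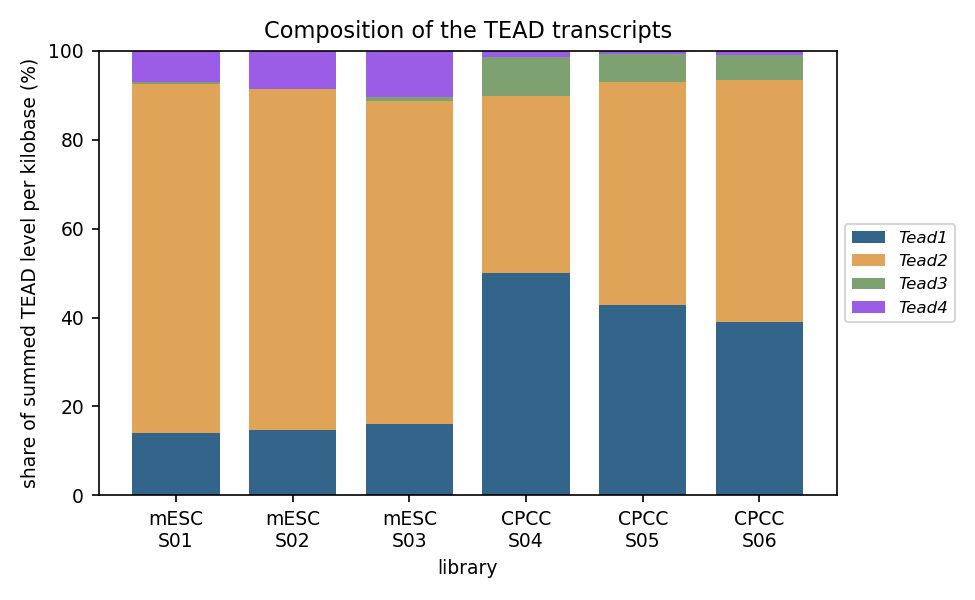
Share of each TEAD gene (%) in the summed TEAD level per kilobase of exon, as 1 stacked bar per library. *Tead2* takes 72.7% to 78.4% of the bar in mESCs and 39.9% to 54.4% in CPCCs, where *Tead1* takes 39.0% to 49.9%.

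The 3 CCN genes and *Amotl2* were all higher in CPCCs, the first 2 by a test and *Wisp1* as a bound. CCN proteins are secreted matricellular proteins with a shared set of domains that bind integrins and growth factors. *Cyr61* (chromosome 3, 145646971 to 145649986, minus strand), an immediate early gene for an angiogenic protein, had 60, 43 and 90 counts in mESCs and 6061, 3964 and 3497 counts in S04, S05 and S06. In CPM these were 9.27, 6.33 and 13.2 against 602.5, 480.7 and 400.8. The CPCC values were within a narrow range for so large a difference, at 494.6 ± 101.6 CPM against 9.59 ± 3.43 CPM (SD, n = 3 each). The fold was 51.5, and the log2 fold change of 5.69 ± 0.31 (SE, edgeR adjusted p = 2.37e-06) ranked 146 from the top among the 12471 genes tested.

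*Ctgf* (chromosome 10, 24595442 to 24598683, plus strand), whose product promotes matrix production and is a marker of fibrosis, was already present in mESCs with 65.7, 80.6 and 80.2 CPM. In S04, S05 and S06 it had 1990, 1188 and 750.8 CPM. The 3 CPCC libraries differed among themselves more than for *Cyr61* but stayed far above the mESC libraries. The means were 75.5 ± 8.51 and 1310 ± 628 CPM (SD, n = 3 each), with a log2 fold change of 4.12 ± 0.35 (SE, edgeR adjusted p = 1.75e-05), or 3.70 without S04. The exons of *Ctgf* share 665 bases with *Gm15270* on the other strand, which is in neither table, so reads from those bases are uncertain in their gene.

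*Wisp1* (chromosome 15, 66891393 to 66923200, plus strand), named as a gene induced by Wnt1, is missing from the mESC table, which leaves it under 10 counts over the 3 mESC libraries. In S04, S05 and S06 it had 16845, 9206 and 7181 counts, or 1674, 1116 and 823.0 CPM. Among the 2518 genes that only the CPCC table lists, it ranked 7 by mean level. Its mean of 1205 ± 433 CPM (SD, n = 3) was at least 2690-fold higher than the mESC floor of 3 counts per library. The lowest CPCC library was 1776-fold the highest floor among the mESC libraries. Neither value takes account of counting error in mESCs.

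*Amotl2* (chromosome 9, 102717804 to 102733418, plus strand) encodes an angiomotin protein that binds YAP and holds it in the cytoplasm, so it is both a target and an inhibitor. It had 34.3, 37.1 and 38.8 CPM in the mESC libraries against 226.7, 122.8 and 114.0 CPM in S04, S05 and S06. The mESC libraries were tightly grouped, and S04 was well above the other CPCC libraries. The means were 36.7 ± 2.25 and 154.5 ± 62.7 CPM (SD, n = 3 each), a fold of 4.21 and a log2 fold change of 2.07 ± 0.28 (SE, edgeR adjusted p = 0.00022), or 1.70 without S04.

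The balance among the CCN genes also differed. Per kilobase of exon the ratio of *Ctgf* to *Cyr61* was 5.16, 9.28 and 4.43 in mESCs and 2.40, 1.80 and 1.36 in S04, S05 and S06. *Ctgf* was thus above *Cyr61* in every library, by a larger ratio in mESCs (6.29 ± 2.61) than in CPCCs (1.86 ± 0.523; SD, n = 3 each), with libraries that did not overlap (exact two-sided permutation test, p = 0.10, the smallest that 3 against 3 allows). The 3 CCN genes together came to 75.3, 87.0 and 92.4 of every 1000000 counts in the mESC libraries and to 3753, 2702 and 2034 in S04, S05 and S06.

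Levels of different genes were compared per kilobase of exon. In mESCs *Tead2* was the highest member, at 43.0 ± 3.55 CPM per kilobase (SD, n = 3). It was followed by *Wwtr1* (30.2 ± 1.74), *Yap1* (29.8 ± 2.06) and *Ctgf* (27.2 ± 3.07), whose neighbours in the order overlapped in their libraries. *Tead1* (8.46 ± 0.196) and *Amotl2* (8.23 ± 0.505) overlapped next, then *Tead4* (4.88 ± 0.751) and *Cyr61* (4.75 ± 1.70), and *Tead3* was last at 0.242 ± 0.19.

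In CPCCs the CCN genes stood at the top, with *Ctgf* at 472 ± 226.5, *Cyr61* at 245 ± 50.3 and *Wisp1* at 236 ± 84.9 CPM per kilobase (SD, n = 3 each). The libraries of these 3 overlapped. They ranked 72, 206 and 217 among the 15326 genes with a length in the CPCC table. The regulators followed at a distance, *Wwtr1* at 57.5 ± 17.9, *Amotl2* at 34.6 ± 14.1, *Tead2* at 33.1 ± 5.75, *Tead1* at 30.0 ± 3.16 and *Yap1* at 27.2 ± 2.05, each overlapping its neighbour. *Tead3* (4.72 ± 1.02) and *Tead4* (0.718 ± 0.196) were lowest, and neither overlapped its neighbour.

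The CPCC libraries were not alike in these genes. In CPM, S04 was the highest of the 3 CPCC libraries in 9 of the 10 members and the lowest in *Tead2*, while it was the highest in 38.8% of all genes tested. The ratio of S04 to the mean of S05 and S06 ran from 0.736 in *Tead2* to 2.05 in *Ctgf*, with 1.91 in *Amotl2*, 1.73 in *Wisp1* and 1.66 in *Wwtr1*, but 1.08 in *Yap1*. S04 is the library with the largest total. It also has the lowest TMM factor of the CPCC libraries (0.923, against 1.01 in S05 and 1.07 in S06), and a lower factor raises CPM. The part of its depth, of this scaling or of its cells in this pattern was not tested. Without S04, the 6 members that were higher and the 1 that was lower each passed the threshold in the same direction.

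The other genes of the pathway were taken from 5 lists of 49 genes in all. Of these, 38 were tested, 29 were higher in CPCCs, 3 were lower and 6 did not pass. A further 9 are listed only for CPCCs and 2, *Vgll1* and *Wisp3*, in neither table. Among all genes tested, 31.7% were higher, 29.7% were lower and 61.4% passed in either direction.

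Of the 8 genes of the kinase core, 4 were higher in CPCCs, 1 was lower and 3 did not pass, with a median log2 fold change of 1.38. The share that passed in either direction was near the 61.4% of all genes tested. The kinase gene *Lats2* went from 16.6 ± 4.62 to 192 ± 119 CPM (SD, n = 3 each; log2 fold change 3.54 ± 0.44 SE, edgeR adjusted p = 0.000149). Its CPCC value was highest in S04, at 328.6 CPM against 134.6 and 113.5, and without S04 the log2 fold change was 2.92. *Lats1* rose from 16.7 ± 4.79 to 102.8 ± 18.4 CPM (log2 fold change 2.62, edgeR adjusted p = 4.07e-05) and *Mob1b*, an activator of the LATS kinases, from 4.28 ± 1.04 to 35.2 ± 17.8 CPM (log2 fold change 3.04, edgeR adjusted p = 0.000215). The 3 genes that did not pass, *Stk3*, *Stk4* and *Sav1*, had log2 fold changes of 0.40, -0.23 and 0.22. *Nf2* (merlin) was lower, with a log2 fold change of -0.68 (edgeR adjusted p = 0.0106), and was not called without S01 (-0.59, edgeR adjusted p = 0.0532).

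Of 17 upstream and junctional regulators, 15 were tested, 11 of them higher, 1 lower and 3 not past the threshold, with a median log2 fold change of 1.11. *Amot*, the angiomotin that gave the family its name, had 4, 1 and 6 counts in mESCs and rose to 50.4 ± 9.54 CPM in CPCCs (SD, n = 3; log2 fold change 6.49, edgeR adjusted p = 5.01e-06). *Rassf1*, a scaffold that binds the MST kinases, had a log2 fold change of 3.63 (edgeR adjusted p = 1.35e-05), and *Ptpn14*, a phosphatase that binds YAP, 3.42 (edgeR adjusted p = 8.73e-06). *Wtip*, a LIM protein of cell junctions, was the 1 that was lower, at -0.72 (edgeR adjusted p = 0.0148), and was not called without S01 (-0.66, edgeR adjusted p = 0.0608) or without S02 (-0.62, edgeR adjusted p = 0.0679). The atypical cadherin genes *Dchs1* and *Fat4*, whose products bind each other between neighbouring cells, are listed only for CPCCs, at 43.3 ± 12.8 and 29.3 ± 5.70 CPM (SD, n = 3 each), at least 96.6-fold and 65.4-fold higher than the mESC floor.

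VGLL proteins bind TEAD proteins at the site that YAP and TAZ use. Of the 4 VGLL genes, *Vgll4*, known to oppose YAP, was the single one tested. Its mESC counts were 18, 25 and 3, and it rose from 2.30 to 23.3 CPM (log2 fold change 3.34 ± 0.54 SE, edgeR adjusted p = 0.000647). *Vgll3* is listed only for CPCCs, with 186.4, 70.0 and 69.8 CPM in S04, S05 and S06, at least 242.8-fold higher than the mESC floor. *Vgll2*, also listed only for CPCCs, had 7, 9 and 14 counts there, a bound of 2.52-fold against the floor, and was too low to be tested when missing genes were set to 0 or 3 counts.

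Of the 3 other CCN genes, *Nov* (*Ccn3*) had mESC counts of 0, 9 and 1 and reached 35.6 ± 11.2 CPM in CPCCs (SD, n = 3; log2 fold change 6.12 ± 0.70 SE, edgeR adjusted p = 9.44e-05). That change rests on few mESC counts, and moved to 8.63 without S02. *Wisp2* (*Ccn5*) was listed only for CPCCs, with 13, 13 and 5 counts, a bound of 2.56-fold against the floor, and was likewise too low to be tested when missing genes were set to 0 or 3 counts. Of the 5 CCN genes listed for CPCCs, *Ctgf*, *Cyr61* and *Wisp1* were far above *Nov* and *Wisp2* in CPM.

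Of 17 other genes reported as YAP and TAZ targets, 13 were tested, 12 of them higher and 1 lower, with a median log2 fold change of 3.89, and 4 are listed only for CPCCs. The receptor tyrosine kinase gene *Axl* rose from 0.834 to 596 ± 227 CPM (log2 fold change 9.44 ± 0.52 SE, edgeR adjusted p = 2.37e-06). *Tgfb2*, a ligand of the TGF-beta pathway, had a log2 fold change of 8.73 (edgeR adjusted p = 2.86e-06) and *F3*, the gene of tissue factor, one of 6.52 (edgeR adjusted p = 1.62e-06). *Ccdc80* and *Rbms3* are listed only for CPCCs and were at least 793-fold and 179.9-fold higher than the mESC floor. *Dock5*, a guanine nucleotide exchange factor for Rac, was the 1 that was lower, with a log2 fold change of -0.92 (edgeR adjusted p = 0.00293). These counts per list stand beside the 31.7% higher and 29.7% lower of all genes tested. The mesenchymal and smooth muscle marker sums given above rose with them, and the part of the mixture of cell types in the counts was not tested.

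**Figure D4:**
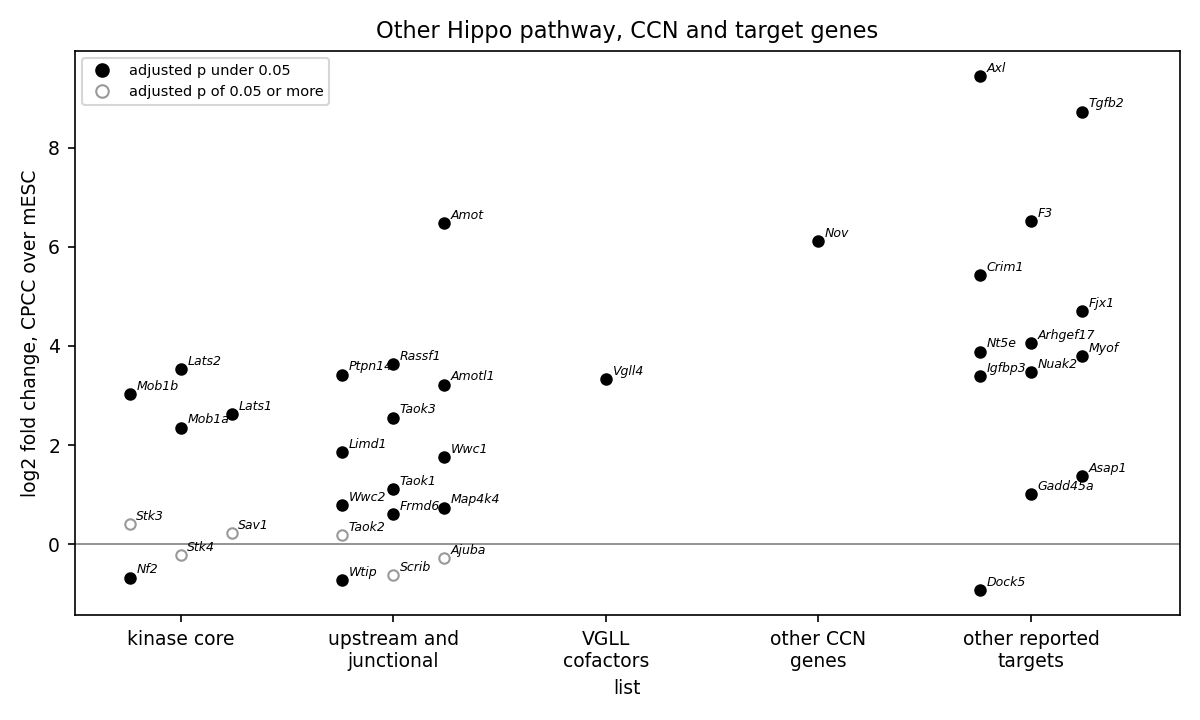
Log2 fold change (CPCC over mESC) of the 38 tested genes in the 5 lists, 1 point per gene, spread sideways within a list for legibility, with filled points past an adjusted p under 0.05 in edgeR. Points lie mostly above 0, up to 9.44 for *Axl*, while *Nf2*, *Wtip* and *Dock5* are the filled points below it.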

How the data were processed

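Bulk RNA-seq libraries of 3 mESC and 3 CPCC samples were analysed. They were made from polyadenylated RNA with the SMART-Seq v4 kit, which does not mark strand. The values are estimated counts per gene that the authors deposited as 1 table per cell type, not normalised and not split by allele. The submitters' processing notes name STAR 2.7 and mm10, and the counter is not given in the sources used here. The share of values that were not whole ran from 17.87% to 21.5% per library. Gene positions are as in the tables.

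Counts were rounded to whole numbers. There were 13761 genes for mESCs, 15519 for CPCCs and 13001 in both tables. Of these, filterByExpr removed 530, and 12471 were tested with edgeR 4.0.16 (quasi-likelihood test, TMM, R 4.3.3) at a Benjamini-Hochberg adjusted p under 0.05. Folds of genes listed for CPCCs alone are bounds against 3 counts per library. Exon lengths were unions of exons in GENCODE M21 basic transcripts (GRCm38), found for 98.7% of genes. Permutation tests were exact (SciPy 1.17.1). Replicates were 3 clones, and nothing ties the CPCC columns to them.

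All 10 members were named, with the 3 genes past the threshold with the largest change in each list and up to 2 listed in 1 table only. Other genes named (*Nf2*, *Stk3*, *Stk4*, *Sav1*, *Wtip*, *Dock5* and the markers by name) were chosen after their values were seen. The members and lists were chosen with earlier results of these data known. The fits were also run on simulated counts, with a single dispersion for all genes and few changed genes, unlike the 61.4% that passed here. That run checked the code and not these results. Alternatives were DESeq2 1.42.0, other normalisations, filters, treatments of missing genes, a 2-fold threshold and leaving out each library. Bounds divide a mean by the floor and take no account of counting error or of the spread between libraries. The allele-specific, single-cell and chromatin data were not used here.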

Additional observations from a re-analysis of the deposited data

How the results depend on the processing

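Of the 9 tested members, the calls of 8 held their direction and side of the threshold under DESeq2, upper-quartile normalisation, library totals alone, no filter, at least 10 counts in every library (where *Tead3* was not tested), missing genes set to 0 or 3 counts, library sizes over whole tables and each left-out library. The exception was *Tead2*, at -0.45 (adjusted p = 0.0497 from edgeR) with missing genes at 3 counts, which made the members called lower 2. At a threshold of at least 2-fold *Wwtr1* was no longer called. At that threshold 2430 of all genes tested were lower, and 0 genes of the kinase core, 0 upstream regulators and 0 other targets. With at least 10 counts in every library, 0 VGLL genes, 0 other CCN genes and 7 other targets were called higher. With missing genes at 0 or at 3 counts, 2 VGLL genes were higher. Leaving out 1 library at a time moved the genes called lower between 0 and 1 in the kinase core (0 without S01, where *Nf2* was lost) and between 0 and 2 among upstream regulators (0 without S01 or without S02, where *Wtip* was lost, 2 without S06). The causes were not tested.

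Among members, leaving out 1 library gave log2 fold changes of 0.65 to 1.08 for *Wwtr1* and 3.78 to 4.95 for *Tead3*, whose mESC counts of 1 to 9 limit its precision. Shares of TEAD counts rather than of counts per kilobase changed by 35.8 percentage points for *Tead1* and -32.5 for *Tead2*, and with the longest coding transcript as length, an alternative chosen after seeing the data, by 28.5 and -27.0. No paired analysis was possible because the columns carry no replicate numbers.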
